A study of Mus musculus with 4 samples.

Results

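The Tcl1 and Tcl1b cluster of the mouse was examined in polyadenylated RNA of late two-cell embryos. Its members were taken by symbol, as the gene named Tcl1 and every gene whose symbol begins with Tcl1b, which gave 6 of the 24411 genes listed in each library. They were Tcl1, Tcl1b1, Tcl1b2, Tcl1b3, Tcl1b4 and Tcl1b5. All 6 passed the filter on low counts. The symbols set the membership, but the cluster itself was chosen by its higher levels in the treated libraries of these data, so that difference is given here as a description of the libraries.

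The embryos were of the ICR strain, had been produced by in vitro fertilization, and were cultured in KSOM, a simple embryo medium, with bovine serum albumin. In 2 libraries the embryos had been exposed to 6 µM 10074-G5, a small molecule that binds MYC and prevents its heterodimerization with MAX. In the other 2 libraries they had been exposed to DMSO, the solvent of the inhibitor. Each library pooled 10 embryos at 36 h post-insemination (hpi), and the start of the exposure is stated as 6 hpi in one place and 3 hpi in another. An inhibitor was used and not a mutation, so no targeted transcript could check the labels.

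TCL1 proteins are small beta-barrel proteins without enzymatic activity. They bind the pleckstrin homology domain of the AKT kinases, hold these kinases together and raise their activity. The human genes of the family are best known for their activation in lymphoid leukaemias. In the mouse, Tcl1 and its Tcl1b relatives are transcribed in oocytes and early embryos, Tcl1b has multiplied into several copies, and embryos that lack maternal Tcl1 cleave poorly. Transcripts of this kind are made in the oocyte, stored, and removed around the time when zygotic genome activation (ZGA) supplies new RNA.

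The cluster lies on chromosome 12 (RefSeq, GRCm38.p6, the assembly called mm10), where its members cover 75.7 kb. Along the chromosome came Tcl1b2 (105147019 to 105155225), Tcl1b1 (105159704 to 105166625), Tcl1b5 (105176344 to 105181145), Tcl1b3 (105191045 to 105195399), Tcl1b4 (105202395 to 105206993) and Tcl1 (105216753 to 105222737). The 5 Tcl1b genes are on the plus strand and Tcl1 is on the minus strand. Every member has 4 exons in the GENCODE M21 transcript closest to the deposited length. The coding length was 348 bases in Tcl1 and Tcl1b1, 351 in Tcl1b2, 366 in Tcl1b3, 360 in Tcl1b4 and 363 in Tcl1b5. Between Tcl1b genes the coding sequences were from 75.0% to 88.3% identical over the aligned bases, and the closest pair was Tcl1b3 and Tcl1b5. Against Tcl1 the identity was only 61.6% to 65.8%.

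Sequence immediately before the annotated start was compared between the Tcl1b copies. Over the aligned promoter bases, pairs of Tcl1b genes were from 75.4% (Tcl1b1 and Tcl1b3) to 98.6% (Tcl1b2 and Tcl1b4) identical. The following windows were read from RefSeq (GRCm38.p6). For the Tcl1b genes the capitals mark a run of 25 bases that all 5 share without a difference, with up to 30 bases around it.
Tcl1b1, chr12:105159619-105159703, plus strand: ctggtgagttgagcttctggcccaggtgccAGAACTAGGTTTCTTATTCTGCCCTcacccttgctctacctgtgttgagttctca
Tcl1b2, chr12:105146948-105147018, plus strand: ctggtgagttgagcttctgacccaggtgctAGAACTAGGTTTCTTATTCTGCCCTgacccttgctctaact
Tcl1b3, chr12:105190958-105191042, plus strand: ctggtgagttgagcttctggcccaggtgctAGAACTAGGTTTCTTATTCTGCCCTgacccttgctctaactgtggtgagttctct
Tcl1b5, chr12:105176273-105176343, plus strand: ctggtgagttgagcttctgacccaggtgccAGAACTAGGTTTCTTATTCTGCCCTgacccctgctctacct
The run began from 57 to 28 bases before the RefSeq start, and GENCODE places that of Tcl1b4 inside an exon of a longer transcript. It also places 14 bases of the Tcl1b1 window inside an exon. Among the 250 bases before the start of 27025 genes with a RefSeq promoter, 5 held this run, which were the 5 Tcl1b genes. The window of Tcl1 is shown for contrast, with capitals on the letters CCGCCC, the complement of GGGCGG. It runs from 146 to 47 bases before the RefSeq start, and so does not cover the same positions as the Tcl1b windows.
Tcl1, chr12:105222784-105222883, minus strand: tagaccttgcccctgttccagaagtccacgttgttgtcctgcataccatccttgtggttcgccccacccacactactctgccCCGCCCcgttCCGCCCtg
GGGCGG was found on either strand in Tcl1 alone among the members, at 2 places, and in 32.9% of all promoters. GENCODE places 10 bases of the printed Tcl1 window inside an exon, so part of it may be transcribed.

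Because MYC and MAX pair on E-boxes, the letters CANNTG were looked for in the same 250 bases of each member. CACGTG, the form MYC and MAX prefer, was in 0 of the 6 members and in 6.05% of all promoters. CANNTG, which includes CACGTG and reads the same on both strands, was in 6 of 6 members and in 66.0% of all promoters. Of its forms, CACCTG or its complement CAGGTG was in 6 of 6 members, against 17.1% of all promoters, once in Tcl1 and at 2 places in each Tcl1b gene, and these letters were picked with the sequences in view. TATAAA was in 0 of 6 members and in 13.0% of all promoters, on either strand. The Tcl1b genes are copies of one sequence, so they do not count as 5 separate observations, and a match of letters is not a binding site.

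The expected counts of the libraries summed to between 18206584 and 20718690, and the lowest count of any member was 1223. DMSO replicate 1 stood apart, with a Pearson's r of log2 CPM across the 13549 tested genes of 0.825 to 0.887 with the other libraries, against 0.912 to 0.931 among those. All 15 markers listed for oocytes and two-cell embryos reached 1 FPKM in at least 1 library, with a median log2FC of 0.96 (0.33 without DMSO replicate 1). Of these, 13 were higher and 2 lower, namely Dppa3 (log2FC -0.89) and Zp3 (-1.375). The summed CPM of this list was 16180 and 12430 in control and 13600 and 12790 in treated embryos. Dppa3 was its largest part, with 14530 and 7780 CPM in control and 5889 and 6181 CPM in treated embryos. Of 16 cumulus and granulosa cell markers, 13 were under 1 FPKM in every library and 6, among them Foxl2 and Amh, were listed at 0 throughout, while Amhr2 had 4.45 to 21.5 FPKM. The summed CPM of the cumulus list was 45.0 and 23.9 in control and 22.9 and 12.7 in treated embryos. Amhr2 alone gave 41.1 and 13.8 of it in control and 8.95 and 7.01 in treated embryos. The sperm list, with 3 of 8 genes at 0 (Prm1, Tnp2 and Smcp), summed to 46.5 and 128.7 in control and 195.9 and 135.3 in treated embryos. Odf2 alone gave 44.8 and 127.3 CPM in control and 190.4 and 132.5 CPM in treated embryos. The sums therefore follow this gene and not the list. The blood list, carried by Hba-a2 and with 3 of 8 genes at 0, summed to 78.4 and 75.7 in control and 58.2 and 97.7 in treated embryos. The part of these differences in the values of the cluster was not tested.

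All members were among the better expressed genes of the embryo. All 6 were higher in both 10074-G5-treated libraries than in both control libraries, as were 28.9% of all tested genes. Levels are given in FPKM, fragment counts divided by effective transcript length and by library size, which allows members of different length to be compared. Tcl1, which gives the family its name, had 2034 and 5310 FPKM in DMSO replicates 1 and 2 and 9606 and 9315 FPKM in treated replicates 1 and 2. It ranked 60 and 6 among all genes in the control libraries and 5 and 4 in the treated ones. Tcl1b1 had 1151 and 2141 FPKM in control and 4979 and 4701 FPKM in treated embryos. These were the members with the highest levels in every library, and their treated libraries did not overlap the control libraries.

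Tcl1b2 and Tcl1b3 stood in the middle of the order. Tcl1b2 had 426 and 1035 FPKM in control and 2444 and 2590 FPKM in treated embryos. Tcl1b3 had 510 and 1094 FPKM in control and 2263 and 2379 FPKM in treated embryos. For both, DMSO replicate 1 was the lowest library and both treated libraries were above DMSO replicate 2. Tcl1b4 had 358 and 685 FPKM in control and 1453 and 1259 FPKM in treated embryos. Tcl1b5 was the lowest member throughout, with 83.9 and 173.7 FPKM in control and 367 and 376 FPKM in treated embryos, and its rank among all genes went from 1412 in DMSO replicate 1 to 334 in treated replicate 1. As these are pools of whole embryos, fewer contributing cells and less RNA per cell cannot be told apart.

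**Figure D1:**
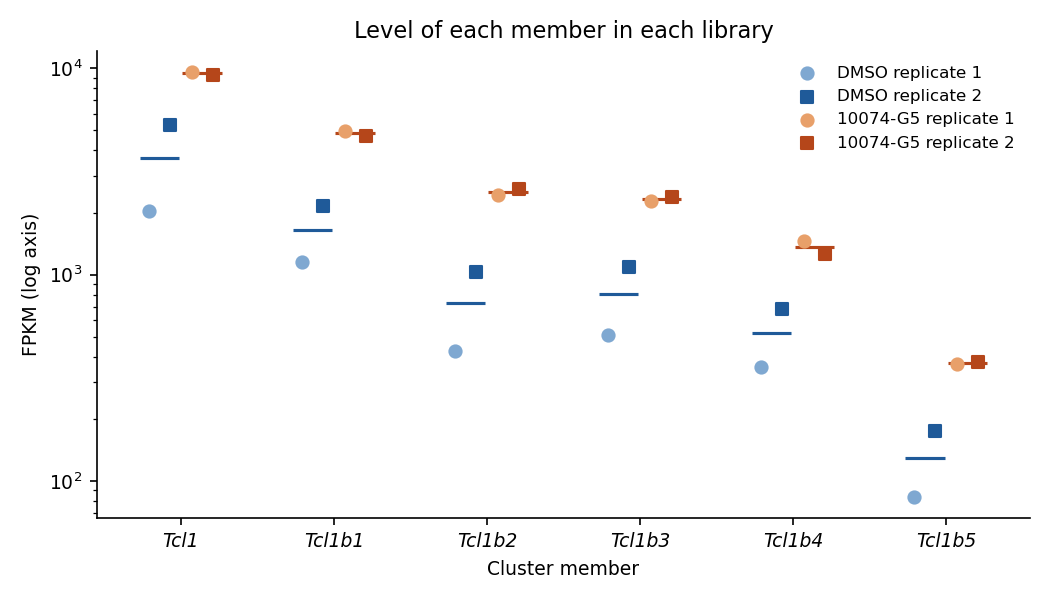
FPKM (vertical, log axis) of the 6 members in the 4 libraries, with points for libraries and short lines for the mean of each group of 2. For each member DMSO replicate 1 is the lowest library, DMSO replicate 2 the next, and the treated libraries lie close together above both.

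The order of the members by mean FPKM was Tcl1, Tcl1b1, Tcl1b3, Tcl1b2, Tcl1b4 and Tcl1b5 in control embryos, with means of 3672 ± 2317, 1646 ± 700, 802 ± 413, 730.0 ± 431, 521 ± 231 and 129 ± 63.5 FPKM (SD, n = 2). In control embryos the ranges of Tcl1 and Tcl1b1, of Tcl1b3 and Tcl1b2, and of Tcl1b2 and Tcl1b4 overlapped. Ranges across libraries thus did not separate these neighbours, although the first named was the higher of its pair in both control libraries. All members were lower in DMSO replicate 1, a shared shift that such ranges do not take out. In treated embryos the order was Tcl1, Tcl1b1, Tcl1b2, Tcl1b3, Tcl1b4 and Tcl1b5, with means of 9460 ± 206, 4840 ± 196, 2517 ± 103, 2321 ± 81.5, 1356 ± 137 and 371 ± 6.13 FPKM (SD, n = 2). There the ranges of no neighbours overlapped. The place of Tcl1b3 above Tcl1b2 in control embryos depended on transcript length. The deposited length of Tcl1b3 is 830 bases, against 1045 bases in GENCODE M21, while the 1009 bases of Tcl1b2 are the same in both. With CPM over the GENCODE length, an alternative chosen after seeing the data, Tcl1b2 was above Tcl1b3 in all 4 libraries, by 1.14 and 1.298 times in control and 1.48 and 1.49 times in treated embryos.

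Differences between the groups were estimated on counts scaled to library size (CPM) with TMM factors. The log2FC of treated over control embryos, by edgeR's quasi-likelihood fit over all 13549 genes, was 1.28 for Tcl1 (standard error 0.49), 1.45 for Tcl1b1 (0.42), 1.70 for Tcl1b2 (0.46), 1.44 for Tcl1b3 (0.43), 1.28 for Tcl1b4 (0.41) and 1.43 for Tcl1b5 (0.40). These correspond to 2.43-fold (Tcl1b4) to 3.25-fold (Tcl1b2) higher levels. CPM and FPKM are relative to the other RNA counted in the same library, so they do not give amounts per embryo. The median of the 6 members was 1.44, and that of all tested genes was 0.04. No member met both criteria, an absolute log2FC above 1 and an adjusted p below 0.05, since the Benjamini-Hochberg adjusted p from edgeR was 0.333 for each of them, the smallest value of any gene. This test called 0 of 13549 genes (0.0%) higher and 0 (0.0%) lower. An unadjusted edgeR p under 0.05 with a higher level was found for 6 of 6 members and for 4.72% of all genes, a lower level for 10.1% of all genes, and either direction for 2013 genes (14.9%).

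The call depended on the tool. DESeq2 on the same genes placed 6 of 6 members past both thresholds, with adjusted p-values from 0.00816 (Tcl1b2) to 0.0472 (Tcl1), where 0.716% of all genes were called higher and 3.54% lower. DESeq2 on the 18208 genes with at least 1 count called 5 of 6 members, where 0.478% of all genes were called higher and 2.4% lower, and left out Tcl1 (adjusted p = 0.0593). Both treated libraries were above both control libraries for 6 of 6 members and for 28.9% of all genes, and both were below for 28.3%. A log2FC above 1 was found for 6 of 6 members and for 18.1% of all genes. Since the cluster was picked with this contrast known, nothing is read from these counts. With 2 libraries in each group, the smallest two-sided p that exact permutation allows for any one value is 0.333.

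The step between the control libraries was of similar size to the step from them to the treated ones. In CPM, DMSO replicate 2 was above DMSO replicate 1 by 1.56 times (Tcl1b1) to 2.20 times (Tcl1), and the lower treated library was above DMSO replicate 2 by 1.73 times (Tcl1) to 2.38 times (Tcl1b2). The step to the treated libraries was the larger one for 5 of 6 members in CPM, Tcl1 being the exception, but for only 2 of 6 in FPKM, Tcl1b1 and Tcl1b5. The treated libraries differed in FPKM by only 1.02 times (Tcl1b5) to 1.15 times (Tcl1b4). The sequence of DMSO replicate 1, DMSO replicate 2 and then both treated libraries, seen in all 6 members, was seen in 23.5% of all tested genes.

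Without DMSO replicate 1 the log2FC by edgeR ranged from 0.84 (Tcl1) to 1.29 (Tcl1b2), with a median of 1.10 and adjusted p-values from 0.139 to 0.172, and Tcl1 and Tcl1b4 (0.99) fell below the fold threshold. Without DMSO replicate 2 it ranged from 1.66 (Tcl1b4) to 2.30 (Tcl1b2), and the edgeR fit then called 6 of 6 members, with adjusted p-values from 0.000377 to 0.00104, where 14.6% of the 14669 genes tested were called higher and 14.1% lower. Without treated replicate 1 or 2 the log2FC lay between 1.19 and 1.76, with adjusted p-values of 0.841 or more from edgeR. Each of these fits has 1 group of a single library, which is assumed to vary like the other group. The direction was the same with each library left out, which was to be expected where both treated libraries lie above both control libraries. Every member had a lower log2FC without DMSO replicate 1, and a higher one without DMSO replicate 2, than with all 4 libraries. The log2FC of Tcl1 moved by more than 1.5 times with either control library left out.

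**Figure D2:**
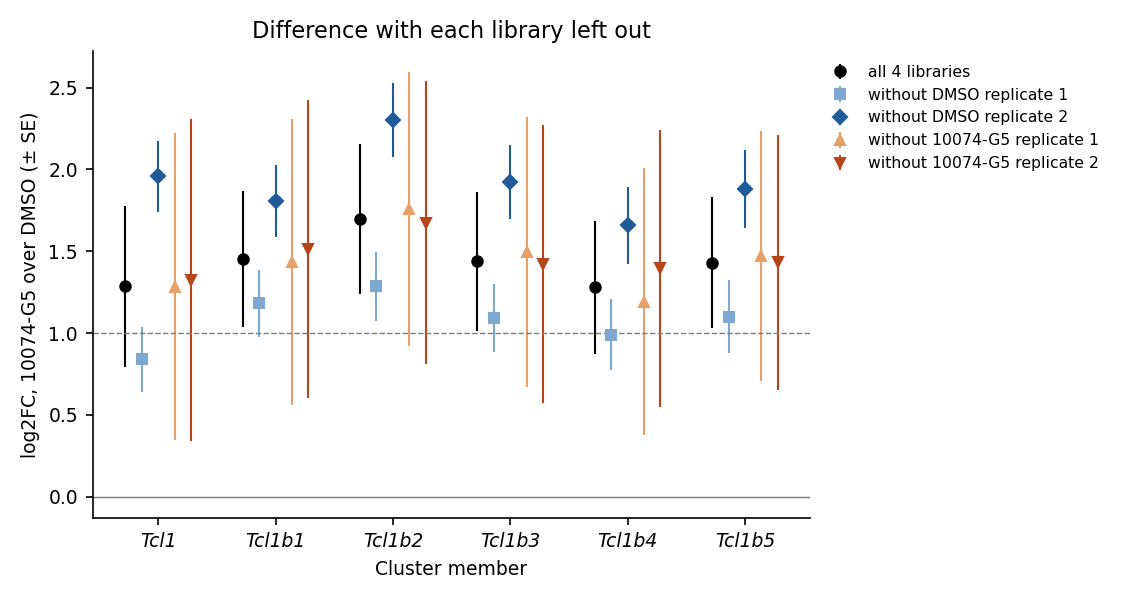
Log2FC of treated over control embryos (vertical, ± standard error from edgeR) for each member, with all 4 libraries and with each library left out, and a dashed line at a log2FC of 1. Leaving out DMSO replicate 1 gives the lowest values (0.84 for Tcl1) and leaving out DMSO replicate 2 the highest (2.30 for Tcl1b2).

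The cluster as a whole took up a small part of all counts in every library. Its summed expected counts were 0.403% and 0.946% of all counts in the control libraries and 1.89% and 1.83% in the treated ones. The summed level was 4563 and 10439 FPKM in control and 21111 and 20619 FPKM in treated embryos. The mean of treated embryos was 2.78 times that of control embryos, and DMSO replicate 2 was 2.29 times DMSO replicate 1.

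The shares of the members within the cluster stayed close while its level differed. Tcl1 made up 44.6% and 50.9% of the summed FPKM in control and 45.5% and 45.2% in treated embryos. Tcl1b1 made up 25.2% and 20.5% in control and 23.6% and 22.8% in treated embryos. The share of Tcl1b3 was between 10.5% and 11.5%, that of Tcl1b4 between 6.11% and 7.85% and that of Tcl1b5 between 1.66% and 1.84% over the 4 libraries. The groups overlapped in the shares of these 5 members. The share of Tcl1b2 was 9.33% and 9.91% in control and 11.6% and 12.6% in treated embryos, the one member whose groups did not overlap, and 2 libraries against 2 cannot show whether this exceeds chance. The ratio of Tcl1 to the sum of the 5 Tcl1b genes was 0.804 and 1.03 in control and 0.835 and 0.824 in treated embryos.

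**Figure D3:**
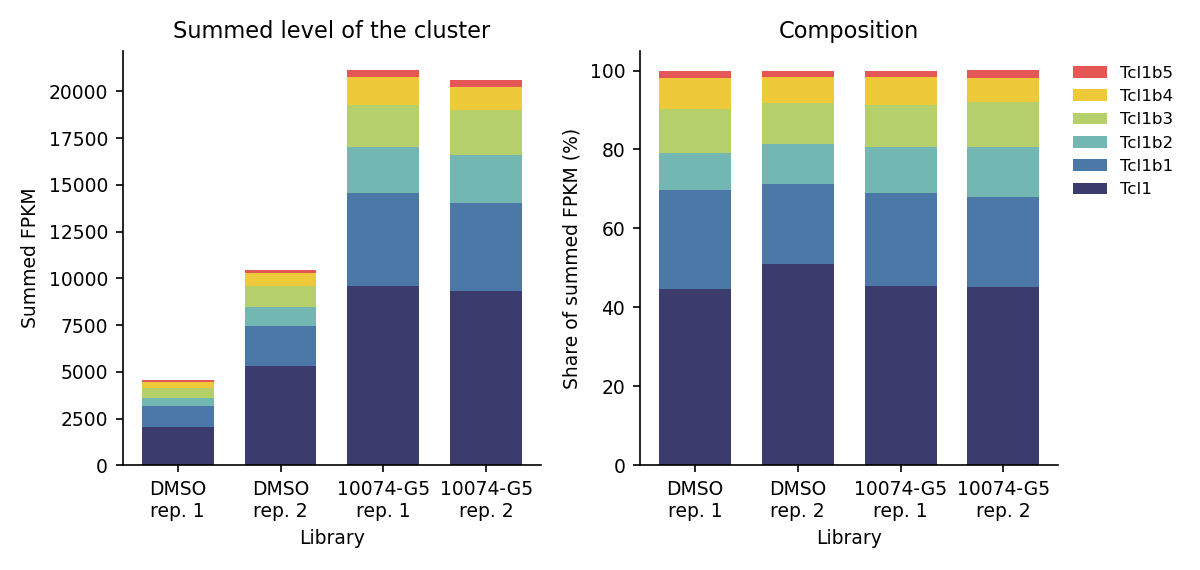
Summed FPKM of the cluster (left, bars from 0) and the share of each member in that sum in percent (right) for the 4 libraries. The sum goes from 4563 in DMSO replicate 1 to 21111 in treated replicate 1, while the share of Tcl1 stays between 44.6% and 50.9%.

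The Tcl1b copies share sequence, which limits how finely they can be separated. Transcripts of Tcl1b2 and Tcl1b3 have 33 words of 150 bases in common, the length of a read, and no other pair of members has any. Words of 31 bases found in another member made up 47.5% of Tcl1b3, 42.7% of Tcl1b2, 38.3% of Tcl1b5, 29.0% of Tcl1b1, 17.5% of Tcl1b4 and 0.0% of Tcl1. The counts of Tcl1b2 and Tcl1b3 were not whole in any library, whereas their sums were whole in 3 of them, at 11319 and 24680 in control embryos and 63293 in treated replicate 1. In treated replicate 2 the sum became whole, at 69090, once Tcl1b5 was added. Some fragments were therefore divided between these genes by estimation, and the split between Tcl1b2 and Tcl1b3, including the share of Tcl1b2 given above, is uncertain. The authors state that only uniquely mapped reads were used. Whether reads matching several copies were left out, which would bear on the order and the shares, was not tested. The values of Tcl1, Tcl1b1 and Tcl1b4 were whole counts in all 4 libraries.

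No other listed gene lay inside the cluster. The nearest listed gene on one side, 106 kb away, was Glrx5, which encodes a mitochondrial glutaredoxin of iron-sulfur cluster assembly. Its level was 64.9 and 78.5 FPKM in control and 123 and 107 FPKM in treated embryos, and edgeR gave it a log2FC of 0.56 ± 0.37 (SE) with an adjusted p of 0.465. Next to it the noncoding Snhg10 had 17.5 and 34.2 FPKM in control and 42.3 and 25.6 FPKM in treated embryos, and here the groups overlapped. On the other side the nearest listed genes were the noncoding Tunar, 114 kb away, which was at 0.22 FPKM in DMSO replicate 2 and listed at 0 in the other libraries, and Gm2721, listed at 0 in all. Of the 10 listed genes on each side, 12 of 20 were under 1 FPKM in every library and 10 were tested. Of all 24411 listed genes, 10625 averaged 1 FPKM or more, so low levels were not particular to these flanks. The median log2FC of those 10 was 0.19, with 6 higher and 4 lower, 0 called by edgeR or DESeq2, and 2 with an unadjusted edgeR p under 0.05, which were Gskip and Papola, both lower in treated embryos by a log2FC of -1.19 and -1.06. Without DMSO replicate 1 these were -0.73 and -0.64, and the median of the 10 genes was 0.07. Gskip and Papola were named after their values were seen.

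**Figure D4:**
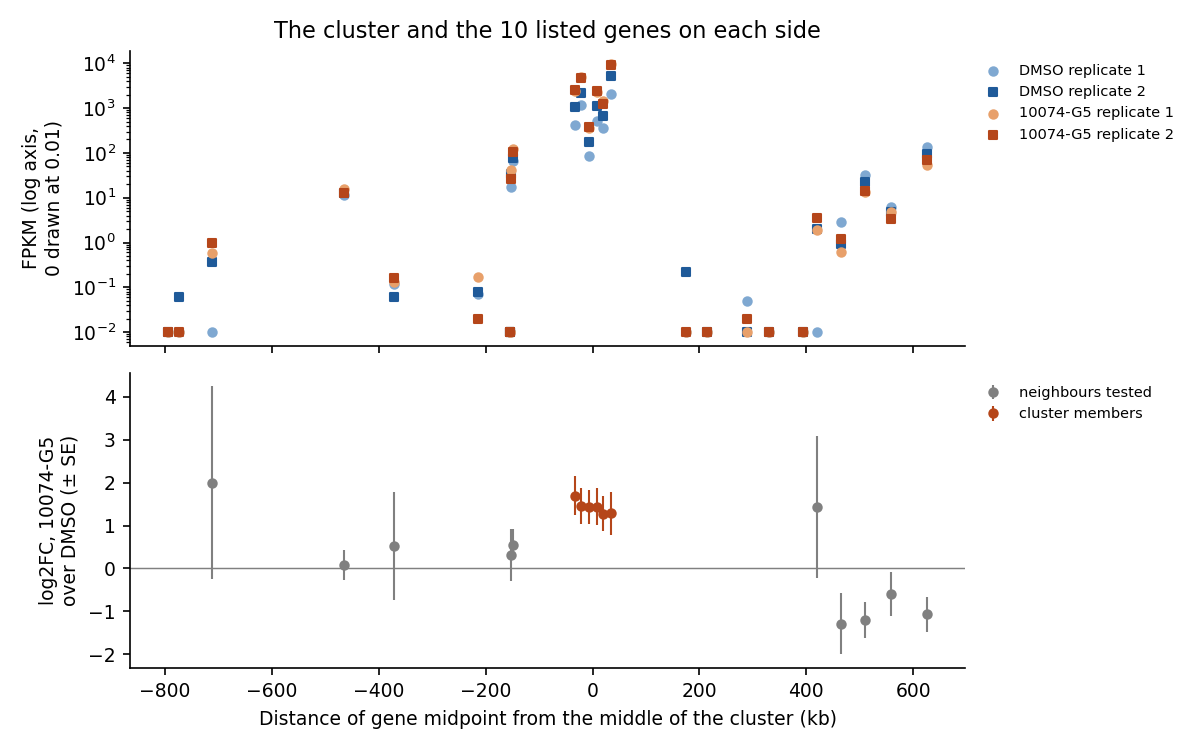
FPKM in the 4 libraries (upper, log axis, 0 drawn at 0.01) and log2FC ± standard error (lower, genes tested) of the 6 members and the 10 listed genes on each side, by distance in kb from the middle of the cluster. Of the flanking genes 12 of 20 stay under 1 FPKM, a level common among all listed genes, and the tested neighbours scatter on both sides of 0.

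Outside the cluster, the TCL1 family of the mouse includes Mtcp1, which was listed at 0 in all 4 libraries. Cmc4, a mitochondrial protein gene that overlaps Mtcp1 on the X chromosome and does not encode a TCL1 domain, had 5.20 and 38.0 FPKM in control and 95.8 and 45.9 FPKM in treated embryos (log2FC 1.46, standard error 0.77, adjusted p = 0.387 by edgeR). Without DMSO replicate 1 its log2FC was 0.74.

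Akt1 and Akt2, kinases to which TCL1 proteins bind, were at levels well below the cluster. Akt1 had 2.43 and 7.75 FPKM in control and 9.35 and 8.92 FPKM in treated embryos, and Akt2 had 7.41 and 7.24 against 5.93 and 6.56 FPKM. Akt1 was higher and Akt2 lower in both treated libraries than in both control libraries. The log2FC was 0.76 for Akt1 (standard error 0.57) and -0.37 for Akt2 (0.44), with edgeR adjusted p-values of 0.518 and 0.692. Without DMSO replicate 1 the log2FC was 0.24 for Akt1 and -0.21 for Akt2.

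Genes around the AKT kinases were taken from 3 lists with 52 genes in all, of which 50 were tested. None of the 50 was called by edgeR or by DESeq2 on the same genes, their median log2FC was 0.25 (0.10 without DMSO replicate 1), and 29 were higher and 21 lower in treated embryos. By an unadjusted edgeR p under 0.05, 1 was higher and 1 was lower, against 4.72% and 10.1% of all genes. Without DMSO replicate 2 edgeR called 11 of 50 (22.0%), against 28.7% of all genes. Among kinases and adaptors that act upstream, Pdpk1, which phosphorylates AKT, had 12.3 and 30.1 FPKM in control and 28.4 and 28.2 FPKM in treated embryos. Pik3cd and Pik3cb, catalytic subunits of PI3 kinase and the genes of this list with the smallest p, had a log2FC of 1.16 (adjusted p = 0.334 by edgeR) and -0.85 (adjusted p = 0.401), and of 0.71 and -0.17 without DMSO replicate 1. Among negative regulators, Ppp2cb, a catalytic subunit of protein phosphatase 2A, had a log2FC of -1.33 and Trib1, a tribbles pseudokinase, of -1.40 (adjusted p = 0.333 and 0.384 by edgeR), which were -0.78 and -0.44 without DMSO replicate 1. Among AKT substrates, the kinase gene Gsk3a had a log2FC of 0.96 and the cell death gene Bad of -1.49 (adjusted p = 0.353 and 0.377 by edgeR), which were 0.89 and -0.60 without DMSO replicate 1.

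The genes whose pattern was most like the cluster were sought among the 5150 tested genes that averaged 10 FPKM or more, by the root mean square distance of the centred log2 CPM over the 4 libraries from the mean of the members. The 5 nearest were Cldn34c1 (distance 0.03 on the log2 scale), Fbp1, a gluconeogenic phosphatase gene (0.04), 4930579F01Rik (0.05), Trap1a (0.05) and Camk2g, a calcium and calmodulin dependent kinase gene (0.07). The members themselves lay between 0.03 and 0.16 from their mean, and 56 of the 5150 genes were as near as the most distant member, Tcl1b2. None of the 5 is on chromosome 12, and their levels ranged from 2.79 FPKM (Fbp1 in DMSO replicate 1) to 151.2 FPKM (Trap1a in treated replicate 2). With only 4 libraries, 138 of the 5150 genes had a Pearson's r of at least 0.99 with the cluster, so the likeness is a description that many genes meet.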

How the data were processed

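Polyadenylated RNA-seq libraries from late two-cell embryos, 2 per group, were prepared by the authors with a SMART-Seq kit, aligned to mm10 with STAR (2.7.10 in the submitters' processing notes) using uniquely mapped reads, and quantified with RSEM (1.3.3). The expected counts deposited by the authors are RSEM estimates without normalization, and the deposited FPKM and TPM are scaled to effective transcript length and library size. The effective lengths and mean transcript lengths deposited by the authors were used to compare members. PCR copies were counted like separate molecules.

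Expected counts were rounded, filtered with filterByExpr (minimum count 10, minimum total 15), scaled with TMM factors (0.873 to 1.06) and tested with edgeR's quasi-likelihood test (edgeR 4.0.16, R 4.3.3, robust estimates) with Benjamini-Hochberg adjustment over 13549 genes. Standard errors are the log2FC over the square root of F. Thresholds were |log2FC| > 1 and an adjusted p under 0.05. Alternatives were DESeq2 1.42.0, limma 3.58.1 on log2(FPKM + 1) and log2(FPKM + 0.1), other scalings and filters, the replicate number as a block, and leaving out each library. Likeness used log2(CPM + 1). The scripts were tested on simulated counts. Members and lists were chosen with earlier results of these data known. Named genes were the members, Akt1, Akt2, Pdpk1, Mtcp1, the 2 genes with the smallest p in each AKT list, the 2 nearest listed neighbours on each side and the 5 most similar genes, and 2 further genes of this rule are not reported here. Promoters are RefSeq (6 of 6 members matched), transcripts GENCODE M21.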

Additional observations from a re-analysis of the deposited data

How the results depend on the processing

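All 6 members were higher in treated embryos under each of the 14 alternatives with a fold change. These were 84 of 84 values, with log2FC from 0.84 to 2.30. Both treated libraries lay above both control libraries for every member, so no reversal was to be expected from refitting the same libraries. With all 4 libraries kept, adjusted p-values ran from 0.008165 (Tcl1b2, DESeq2 on the same genes) to 0.480 (limma on log2(FPKM + 1) without a filter on low values). The number of members called was 0 with edgeR, 6 with DESeq2 on the same genes, 5 when DESeq2 was given every gene with a count, 2 with edgeR without the filter on low counts, and 0 to 6 with a library left out. The numbers of genes called higher and lower were 97 and 479 with DESeq2 on the same genes, 87 and 437 when it was given every gene with a count, 165 and 479 without the filter, and from 1 to 2148 higher and from 1 to 2065 lower with a library left out, the largest without DMSO replicate 2. AKT pathway genes called ranged from 0 to 11 with a library left out. Each limma fit called 0 members and 0 genes in either direction. The same held for edgeR with DESeq2 size factors, with library totals, or with at least 10 counts in every library. DESeq2 on the same genes tested 13549 genes. DESeq2 on every gene with a count and edgeR without the filter each tested 18208 genes. The cause of the shifts in these numbers was not tested. With the replicate block, edgeR called 12 of 13549 genes higher and 32 lower, and 0 members. Same-numbered libraries shared no deviation (r = -0.03), so the numbers are not known to pair the libraries. With CPM over GENCODE length, 4 of 6 members kept their place in the order of control embryos. With Pearson's r in place of distance, 2 of the 5 most similar genes were shared.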

Other observations

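Other gene families of the oocyte and early embryo gave the following values in the same fit. All 4 Oogenesin genes had both treated libraries above both control libraries, with a median log2FC of 1.45, and 0.86 without DMSO replicate 1. Their summed CPM was 3094 and 8806 in control and 18000 and 13040 in treated embryos. The 8 genes of the subcortical maternal complex had a median log2FC of 0.66, and 0.33 without DMSO replicate 1, and 6 of 8 had both treated libraries above both control libraries. The 6 listed Obox genes had a median log2FC of 0.51, and 0.13 without DMSO replicate 1, and 2 of 6 had both treated libraries above both control libraries, a pattern seen in 28.9% of all genes. For the Tcl1 and Tcl1b genes these medians were 1.44 and 1.10. DESeq2 on the same genes called 2 Oogenesin, 2 subcortical maternal complex and 1 Obox gene higher, against 0.716% of all genes, and edgeR called 0 of each. Differences between these families were not tested.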
